A study of Mus musculus with 12 samples.

Results

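Glutathione synthesis and the targets of NRF2 were examined in the livers of 12 C57BL/6 mice as 10 genes of the 41128 in the deposited table. The members were the rows whose symbol was Nfe2l2, Gclc, Gclm, Gss, Gsr, Gpx1, Nqo1, Hmox1, Srxn1 or Txnrd1, and each matched 1 row. 6 mice were germ-free (GF), kept in sterile isolators throughout. Their 6 conventionalized (CV) littermates were born germ-free, left the isolators at weaning on day 21 and lived for 3 weeks on soiled bedding that carried microbes. Both conditions held 3 males and 3 females by label, all 6 weeks old, with 1 liver library per mouse. CV livers therefore differ from GF livers by a recent colonization after weaning and by a change of housing, and these cannot be told apart.

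NRF2, the protein made from Nfe2l2, is a transcription factor that KEAP1 holds at a low level by handing it to the proteasome. When reactive molecules modify KEAP1, NRF2 escapes degradation, pairs with a small MAF protein and binds antioxidant response elements in its target genes, so its activity is set mostly at the protein and not at the transcript. Hepatocytes make much of the body's glutathione, the tripeptide thiol that feeds peroxidases and conjugates foreign compounds, and glutamate-cysteine ligase (GCLC with its modifier GCLM) and then glutathione synthetase (GSS) assemble it.

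Antioxidant response elements share a core that can be written TGACNNNGC, and the related sequence TGACTCA is bound by AP-1 and by NRF2 with its partners. Both were searched on both strands in the 250 bases before the transcript start in RefSeq promoters (GRCm38.p6), where 10.2% of 32851 promoters held the first pattern and 4.46% the second. A stretch in which GC follows TGACTCA would count for both. 7 of the 10 genes matched a promoter entry, namely Nfe2l2, Gclm, Gss, Gpx1, Nqo1, Srxn1 and Txnrd1, the last with 3 starts. Srxn1 held TGACTCA 2 times, 102 and 45 bases before its start. TGACNNNGC was found 134 bases before the start of Gclm, 92 bases before 1 of the 3 starts of Txnrd1 and 240 bases before that of Nfe2l2. The windows below show the matches outside annotated exons on the plus strand of the genome, with the match in capitals; in all 4 the pattern reads on the minus strand.
Srxn1, chr2:152105396-152105454: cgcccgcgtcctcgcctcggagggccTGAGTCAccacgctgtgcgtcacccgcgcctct
Srxn1, chr2:152105453-152105511: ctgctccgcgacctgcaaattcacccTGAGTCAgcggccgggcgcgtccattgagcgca
Gclm, chr3:122245397-122245457: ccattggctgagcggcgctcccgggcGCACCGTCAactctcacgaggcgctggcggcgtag
Txnrd1, chr10:82859088-82859148: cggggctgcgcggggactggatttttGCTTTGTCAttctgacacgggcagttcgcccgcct
These matches describe the letters in a short window and say nothing on binding in these livers.

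The libraries held 5993619 to 15290835 reads, and their makeup differed between the conditions. The 2 mitochondrial ribosomal RNAs took 9.36 to 16.4% of the reads in GF and 1.39 to 6.32% in CV livers, and 7 abundant loci together (these RNAs, Lars2, Mir6236 and 3 predicted genes) took 41.8 to 69.4% and 5.39 to 21.9%. Reads outside these loci numbered 1834565 to 5303292 in GF and 6943462 to 14411498 in CV livers, so GF values rest on fewer reads. All 7 hepatocyte markers examined were abundant in every library. The summed value of these markers ran from 208981 to 474962 in GF males and 399234 to 570784 in CV males. In females it ran from 105262 to 302631 in GF and 515481 to 698537 in CV livers. By the test given below, 5 of the 7 were higher in CV livers over both sexes, 4 in females and 0 in males, and 0 were lower. Of all genes tested, 32.3%, 29.8% and 14.1% were higher. The mean of Cps1 was below that of GF livers, at 9181 against 10673 in males and 8717 against 10302 in females. The 7 lymphocyte markers summed to 354 to 374 in GF males, 79.6 to 165 in CV males, 404 to 652 in GF females and 98.7 to 114 in CV females. The 5 that could be tested were all lower, where 28.7% of all genes were over both sexes. The part of read makeup and of these cell types in the results that follow was not tested, and in whole liver fewer cells of a type and less RNA per cell cannot be told apart. The library labelled CV male 3 had a female pattern (Xist at 2382 and 0 reads from the Y-linked genes examined), and male results are given with and without it.

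Over both sexes, 8 of the 10 genes rose with conventionalization, Nfe2l2 fell, and Gclc did not pass the test (limma on log2 of value + 1, Benjamini-Hochberg adjusted over 11782 genes, threshold 0.05). Of all genes tested, 32.3% were called higher and 28.7% lower. The median log2 change of the 10 genes was 1.00, against 0.07 for all genes tested. Among females the same 8 genes rose and Nfe2l2 fell, where 29.8% of all genes were called higher and 26% lower. Among males 4 genes rose (Gclm, Gsr, Gpx1 and Nqo1), where 14.1% of all genes were called higher and 15.4% lower. Without the library labelled CV male 3, 3 of these (Gclm, Gsr and Gpx1) were called in males, with log2 changes from 0.98 to 1.32, beside 12.1% of all genes called higher. The male count moved most with single libraries: it was 0 without GF male 1 (4 at an unadjusted p under 0.05), 2 without GF male 3 and 1 without CV male 1. No background over all genes is given for those fits, so a loss particular to the 10 genes cannot be told from a general one. All 4 groups entered each of these tests and shared 1 estimate of the spread.

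**Figure D1:**
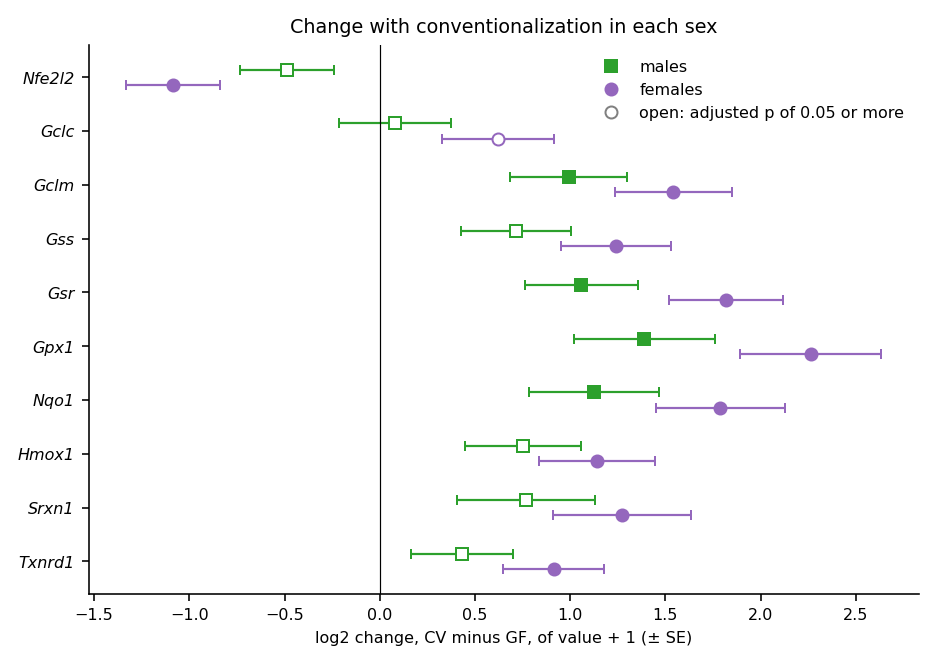
The log2 change of each gene from GF to CV livers (horizontal axis, log2 of value + 1, bars ± SE) is shown for males (squares) and females (circles), with filled symbols for an adjusted p under 0.05. Nfe2l2 lies left of 0 in both sexes, from -0.49 in males to -1.09 in females, and Gpx1 lies furthest right, at 1.39 in males and 2.26 in females.

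The transcript of the regulator itself moved against its targets. Nfe2l2 (ENSMUSG00000015839, minus strand, chr2:75675513-75704641 in GENCODE release 21 on GRCm38) had normalized read counts of 679, 518 and 468 in GF males 1 to 3 and of 335, 404 and 439.7 in CV males. In females the normalized counts were 539, 617 and 926 in GF and 325, 310.4 and 318 in CV livers. Every CV library lay below every GF library of its labelled sex, and the CV females sat within a narrow band, 318 ± 7.39 (SD, n = 3). Such a separation with CV below GF was seen for 21.1% of all genes in males and 31% in females. The log2 change was -0.49 ± 0.25 (SE) in males, which did not pass the test (adjusted p = 0.144 in limma; -0.57 ± 0.28 without the library labelled CV male 3), and -1.09 ± 0.25 in females (adjusted p = 0.00151). Scaled to all reads of a library, the change over both sexes shrank from -0.79 to -0.23 and lost its call (adjusted p = 0.332).

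Glutamate-cysteine ligase catalyses the rate-limiting step of glutathione synthesis. Of its 2 subunits, Gclm was called higher in both sexes and Gclc in neither, and no test compared the 2. Gclc (ENSMUSG00000032350, plus strand, chr9:77754535-77794485), the catalytic subunit, had normalized counts of 1281, 1105 and 1099.7 in GF males and 1984, 1034 and 892 in CV males. GF females had 805, 798 and 719 and CV females 1604, 923 and 1134. The male groups overlapped, with CV male 1 far above and CV males 2 and 3 below every GF male, whereas the female groups did not overlap. Neither change passed the test, at 0.08 ± 0.29 in males (95% interval -0.54 to 0.70, adjusted p = 0.861 in limma) and 0.62 ± 0.29 in females (adjusted p = 0.0824). Without CV male 1 the male value turned to -0.27, and leaving out the library labelled CV male 3 gave 0.305 ± 0.32.

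Gclm (ENSMUSG00000028124, plus strand, chr3:122245557-122270732) encodes the modifier subunit, which raises the efficiency of the enzyme. Its normalized counts were 585, 1005 and 726 in GF males and 1692, 1312 and 1514 in CV males. GF females had 447, 872 and 360.4 and CV females 1372, 1458 and 1742. All 6 CV libraries lay above all 6 GF libraries. Gclm rose by 0.99 ± 0.31 on the log2 scale in males (adjusted p = 0.0243) and by 1.54 ± 0.31 in females (adjusted p = 0.000555), both in limma. In males it rose by 0.98 ± 0.35 without the library labelled CV male 3, close to the threshold (adjusted p = 0.0492, limma). The gene sits on chromosome 3 and overlaps the exons of a predicted antisense gene with a mean value of 5.

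The ratio of the 2 subunits within a library does not depend on how libraries are scaled. Per kilobase of exon, Gclc over Gclm was 1.84 to 3.66 in GF males and 0.985 to 1.96 in CV males. It was 1.53 to 3.33 in GF females and 1.06 to 1.95 in CV females. The mean ratio was 2.65 ± 0.84 (SD, n = 6) in GF and 1.39 ± 0.45 in CV livers, but the ranges overlapped in both sexes, and no test was made of these ratios.

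Gss (ENSMUSG00000027610, minus strand, chr2:155563181-155592810) encodes glutathione synthetase, which adds glycine in the last step. Its normalized counts were 234, 363 and 251 in GF males and 657, 312 and 463 in CV males, and the male groups overlapped. GF females had 319, 378 and 243 and CV females 641, 679.8 and 889, with no overlap. The change was 0.72 ± 0.29 in males, short of the threshold (adjusted p = 0.0719), and 0.70 ± 0.33 without the library labelled CV male 3. Gss rose by 1.24 ± 0.29 in females (adjusted p = 0.00186 in limma). Its exons overlap those of Acss2 on the opposite strand, a gene that changed by 1.16 ± 0.29 over both sexes, and the sources used here do not say if reads were counted by strand. The value of Gss is uncertain to that extent.

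Glutathione reductase recycles oxidized glutathione with NADPH, and its gene Gsr (ENSMUSG00000031584, plus strand, chr8:33652523-33698163) rose in both sexes. Normalized counts were 149.5, 194 and 194 in GF males and 571, 285 and 316 in CV males. GF females had 116, 178 and 88.2 and CV females 492, 398 and 417. No CV library fell within the GF range, and CV male 1 stood well above CV males 2 and 3. The log2 change was 1.06 ± 0.30 in males (adjusted p = 0.0155) and 1.82 ± 0.30 in females (adjusted p = 0.00012, limma). In males it was 1.175 ± 0.34 without the library labelled CV male 3 (adjusted p = 0.0199, limma).

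Gpx1 (ENSMUSG00000063856, plus strand, chr9:108338903-108340343), a selenoprotein that reduces hydrogen peroxide with glutathione, was the most abundant of the 10 and had the largest log2 change among them. GF males had normalized counts of 7019, 11515 and 10632 and CV males 23075, 24399 and 27389. GF females had 3359, 8392 and 4621 and CV females 23276, 23313 and 26523. The lowest CV value was about 2 times the highest GF value, and the CV libraries spread far less in proportion than the GF libraries. Gpx1 rose by 1.39 ± 0.37 on the log2 scale in males (adjusted p = 0.0121) and by 2.26 ± 0.37 in females (adjusted p = 0.00012), both in limma. In males it rose by 1.32 ± 0.425 without the library labelled CV male 3 (adjusted p = 0.0326, limma). The ratio of group means, CV over GF, was 2.57 in males and 4.47 in females. With length and GC content of transcripts adjusted for, its change over both sexes was 1.12 in place of 1.83, still called, and that of Gclm, at 1.70, was then larger.

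**Figure D2:**
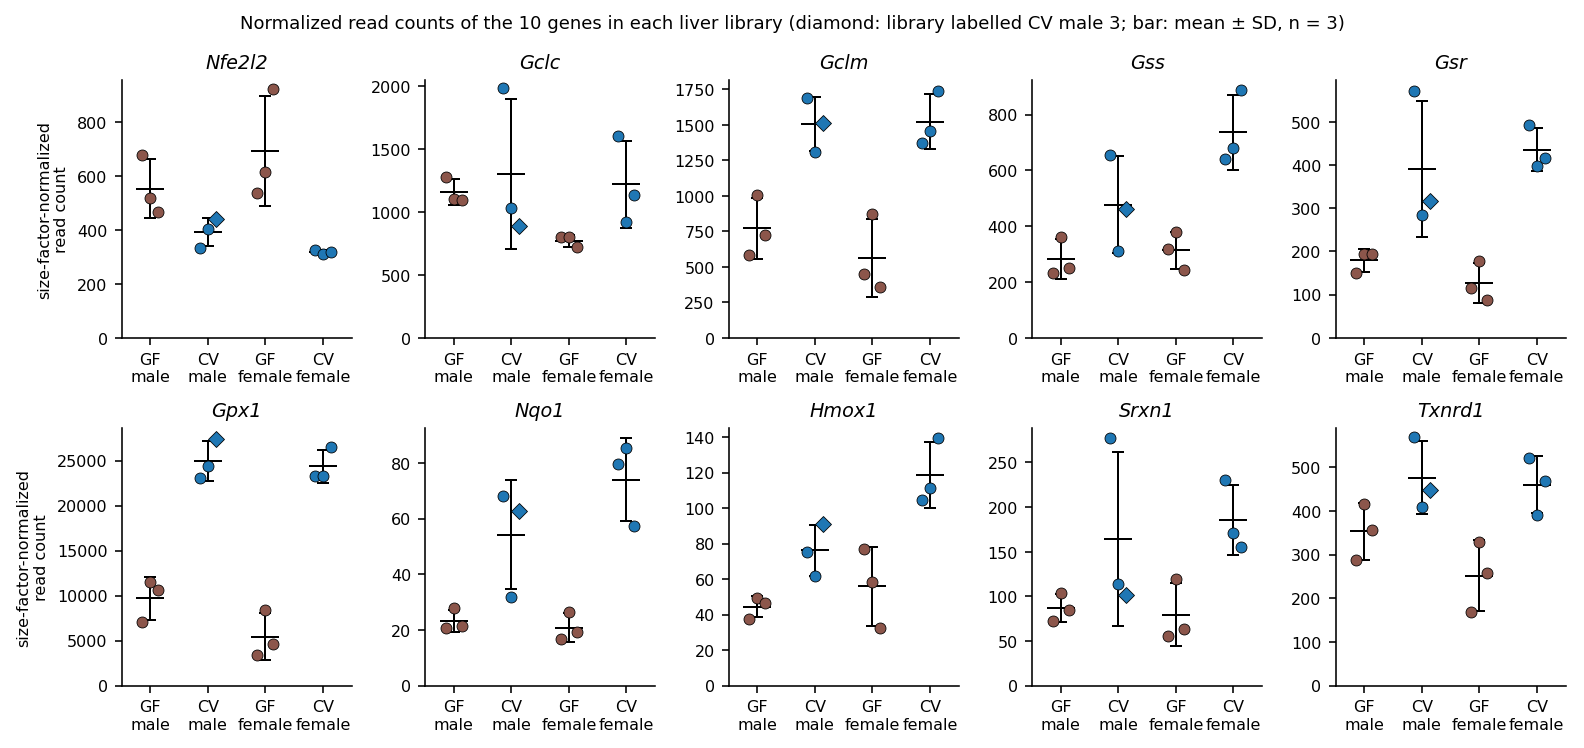
Size-factor-normalized read counts of the 10 genes (vertical axes, each from 0) are shown for the 12 libraries by group, GF in brown and CV in blue, with bars for mean ± SD (n = 3) and a diamond for the library labelled CV male 3. Gclm, Gsr, Gpx1, Nqo1 and Hmox1 separate the conditions in both sexes, Nfe2l2 separates them in the opposite direction, and Gclc, Gss, Srxn1 and Txnrd1 overlap in males.

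Nqo1 and Hmox1 are the classic readouts of NRF2 activity. Nqo1 (ENSMUSG00000003849, minus strand, chr8:107388225-107403206) encodes a quinone reductase and was low, resting on 10 to 23 reads per GF library. Normalized counts were 20.6, 27.9 and 21.3 in GF males and 68.2, 31.8 and 62.7 in CV males. GF females had 16.6, 26.6 and 19.2 and CV females 79.5, 85.3 and 57.2. CV libraries lay above GF libraries in both sexes, although CV male 2 exceeded the highest GF male by little. Nqo1 rose by 1.13 ± 0.34 in males (adjusted p = 0.022) and by 1.79 ± 0.34 in females (adjusted p = 0.000393, limma). Without the library labelled CV male 3 the male value was 0.99 ± 0.39 and missed the threshold (adjusted p = 0.0729).

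Hmox1 (ENSMUSG00000005413, plus strand, chr8:75093621-75100589) encodes heme oxygenase 1, which opens the heme ring and is also abundant in macrophages that clear red cells. Normalized counts were 37.6, 49.2 and 46.8 in GF males and 75.5, 62.0 and 90.9 in CV males. GF females had 77.0, 58.5 and 32.6 and CV females 105, 112 and 139.7. The groups did not overlap in either sex. The change was 0.75 ± 0.30 in males, short of the threshold (adjusted p = 0.073), and 0.62 ± 0.35 without the library labelled CV male 3. Hmox1 rose by 1.14 ± 0.30 in females (adjusted p = 0.00472, limma). After a smooth curve on the length and GC content of transcripts was subtracted in every library, the change over both sexes was 0.29 in place of 0.95 and was not called (adjusted p = 0.219).

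Macrophage markers are given beside Hmox1, and no association between them was computed. The 9 of 9 Kupffer cell and macrophage markers in the table summed to 1034 to 1188 in GF males and 1537 to 2810 in CV males, and to 1760 to 2264 in GF and 2715 to 3229 in CV females. Of the 9, 5 were called higher in CV livers over both sexes and 3 in each sex, with 0 called lower, and none had 0 reads over the series. Of all genes tested, 32.3% were called higher over both sexes, 14.1% in males and 29.8% in females. The 3 of 9 in females was near that share. The mean of Timd4 was lower in CV females, at 45.3 against 65.5 in GF females. The 5 red blood cell markers summed to 2777 to 13986 in GF males, 2706 to 3159 in CV males, 5282 to 32885 in GF females and 916 to 1991 in CV females. Of the 5, 4 were lower over both sexes, where 28.7% of all genes were. The part of either cell type in the Hmox1 result was not tested.

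Srxn1 and Txnrd1 belong to the thioredoxin and peroxiredoxin branch of the NRF2 response. Srxn1 (ENSMUSG00000032802, plus strand, chr2:152105516-152111376), the sulfiredoxin that repairs overoxidized peroxiredoxins, carried both TGACTCA matches printed above. Its normalized counts were 72.5, 104 and 85.0 in GF males and 277, 114 and 102 in CV males, so that the library labelled CV male 3, at 102, lay inside the GF range and the other CV males above it. GF females had 55.9, 119.7 and 63.3 and CV females 230.1, 171 and 155, without overlap. The change was 0.77 ± 0.36 in males (adjusted p = 0.12), and 1.03 ± 0.39 without the library labelled CV male 3 (adjusted p = 0.0589, limma). Srxn1 rose by 1.27 ± 0.36 in females (adjusted p = 0.00721, limma).

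Txnrd1 (ENSMUSG00000020250, plus strand, chr10:82833951-82897712) encodes the cytosolic thioredoxin reductase and holds another gene, Eid3, in an intron. Normalized counts were 287, 415 and 357 in GF males and 569, 409 and 449 in CV males, which overlapped. GF females had 168, 329.8 and 257 and CV females 521, 391 and 468, which did not. Over both sexes Txnrd1 had the smallest change of the 8 genes that rose, 0.67 ± 0.19. It was 0.43 ± 0.27 in males (adjusted p = 0.234), or 0.47 ± 0.31 without the library labelled CV male 3, and it rose by 0.91 ± 0.27 in females (adjusted p = 0.00843, limma). Scaled to the reads outside the abundant loci, the value over both sexes was 0.21 and lost its call (adjusted p = 0.296).

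In all, CV libraries lay above GF libraries without overlap for 5 of the 10 genes in males (Gclm, Gsr, Gpx1, Nqo1 and Hmox1), as 22% of all genes did. Without the library labelled CV male 3, Srxn1 joined them, making 6 of the 10, as 26.3% of all genes did, while Nfe2l2 was again lower without overlap, as 24.5% of all genes were. In females they did so for 9 of the 10, every gene but Nfe2l2, as 34% of all genes did.

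The ratio of the reductase genes for glutathione and for thioredoxin was higher in CV than in GF libraries of each sex. Per kilobase, Gsr over Txnrd1 in the same library was 1.20 to 1.40 in GF males and 1.79 to 2.58 in CV males. In females it was 0.883 to 1.78 in GF and 2.29 to 2.62 in CV livers. The conditions did not overlap in either sex. The same held for Gclm over Nfe2l2, a target against its regulator, at 0.520 to 1.17 in GF males, 1.96 to 3.05 in CV males, 0.235 to 0.853 in GF females and 2.55 to 3.31 in CV females. That separation was fixed in advance, since in both sexes Gclm alone lay above and Nfe2l2 alone below GF without overlap. These ratios are descriptions, with no test, and the share of all gene pairs that separate likewise was not counted. A ratio removes library scaling but not trends with transcript length or GC content. Gsr has 2754 and Txnrd1 7086 bases of exon.

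**Figure D3:**
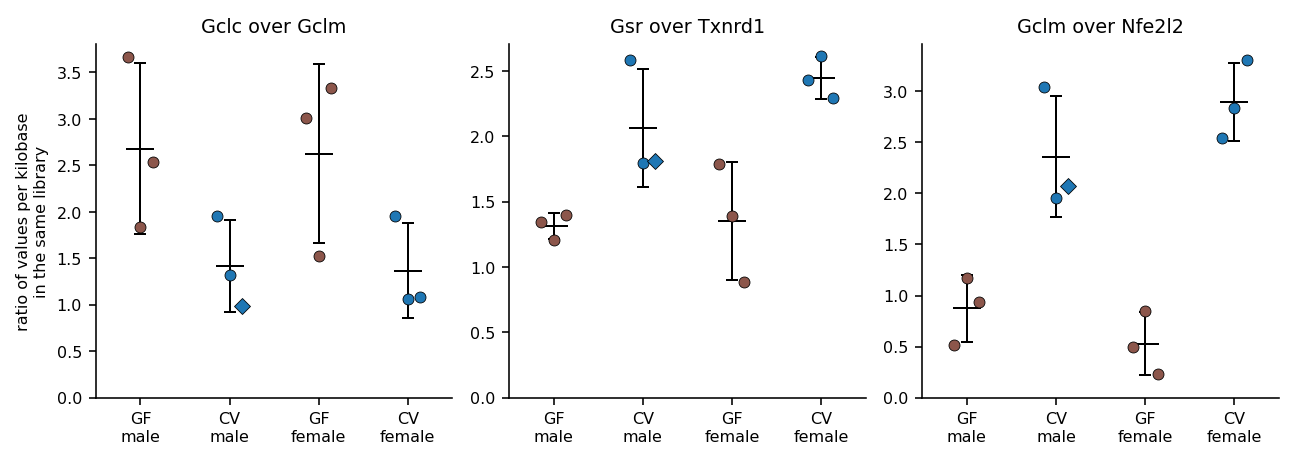
Ratios of values per kilobase of exon within each of the 12 libraries (vertical axes, from 0, no unit) are shown by group, with bars for mean ± SD (n = 3) and a diamond for the library labelled CV male 3. Gsr over Txnrd1 and Gclm over Nfe2l2 are higher in CV livers without overlap within a sex, and Gclc over Gclm is lower on average, 1.39 against 2.65, with overlap.

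Per kilobase of exon, the order of levels began with Gpx1 and Gclc in both conditions and ended with Nqo1. In GF livers the level of Nfe2l2, 165 ± 43.6 normalized counts per kilobase (SD, n = 6), ranked next, above Gclm at 106 ± 39.5. In CV livers Gclm at 241 ± 27.3 and Gsr at 150.0 ± 38.9 stood above Nfe2l2 at 93.6 ± 14.1. Several neighbours in that order differed by less than the larger of their SDs. In GF livers these were the run of Gsr, Gss and Txnrd1, and Srxn1 and Hmox1. In CV livers they were Gclc and Gclm, Gss and Nfe2l2, and the run of Txnrd1, Srxn1, Hmox1 and Nqo1.

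The CV mice numbered 1 had the highest value of their group for part of the genes, some of them by little. CV male 1 had the highest value of its group for Gclc, Gclm, Gss, Gsr, Nqo1, Srxn1 and Txnrd1, and CV female 1 had the highest of the CV females for Nfe2l2, Gclc, Gsr, Srxn1 and Txnrd1. These were also the libraries with the smallest shares of reads in the abundant loci, 5.39% and 5.75%, and with the most reads, 14946450 and 15290835. The part of read makeup and depth in the values was not tested. How many of all genes were highest in these libraries was not counted.

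No member was shown to respond differently in the sexes. The interaction of condition and sex, male change minus female change, was called for 0 of the 10 genes and 0% of all genes in limma. At an unadjusted p under 0.05 there were 0 members, against 11.7% of all genes, and edgeR, DESeq2 and voom called 0 members. Estimates were nevertheless of 1 sign for the 9 genes other than Nfe2l2, from -0.87 for Gpx1 (95% interval -1.98 to 0.23) to -0.39 for Hmox1 (-1.30 to 0.52). Nfe2l2 had 0.60 (-0.14 to 1.33). These intervals leave room for a sizeable difference as well as for none. Scaled to all reads of a library, 7 members had an unadjusted p under 0.05 for the interaction and 0 were called, but 24.9% of all genes reached that level and the median of all genes was itself -0.55. Without the library labelled CV male 3 the interaction was again called for 0 members (0 at an unadjusted p under 0.05). Of all genes, 4 were called and 937 reached that unadjusted level. Estimates ran from -0.94 for Gpx1 to -0.24 for Srxn1, with 0.51 for Nfe2l2.

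Between the sexes, 0 of the 10 genes were called in GF livers, where 1.63% of all genes were, and 0 in CV livers, where 0.0594% were. Without the library labelled CV male 3, 0.654% of all genes and 0 members were called in CV livers. At an unadjusted p under 0.05 there were 1 member and 516 of all 11782 genes. With male and female libraries of the same number taken as pairs, 0 members were called in either condition, where 7.04% of all genes were in GF and 0.204% in CV livers. In that fit 5 and 2 members had an unadjusted p under 0.05, beside 2733 and 992 of all 11782 genes. Scaled to all reads, 3 members were called in GF livers, where 11.8% of all genes were. In the unpaired limma fit there was 1 member at an unadjusted p under 0.05 in each condition, beside 2078 of all 11782 genes in GF and 601 in CV livers. In GF livers edgeR, DESeq2 and voom each called 0 and had 1 at that level, and in CV livers they called 0 and had 2. Of all genes, 2036, 2210 and 1970 were at that level in GF and 759, 908 and 812 in CV livers. The genes entered were 12555 in edgeR and voom and 22953 in DESeq2. In GF livers Gpx1 was higher in males by 0.91 ± 0.37 (adjusted p = 0.211), and in CV livers Gss was lower in males by a log2 difference of -0.68 ± 0.29 (adjusted p = 0.928, limma). Without the library labelled CV male 3 the Gss difference was -0.69 ± 0.33.

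The wider pathway was read from 5 lists with 97 genes, of which 90 passed the filter on low values (mean of at least 10). Of these 90, 66 rose and 4 fell over both sexes, with a median log2 change of 1.06. In females 63 rose and 4 fell, and in males 42 rose and 1 fell, or 33 and 1 without the library labelled CV male 3. These lists were made with earlier results of these data known, and the background shares given above for all genes apply to them. Scaled to all reads, 76 were called higher and 0 lower (limma), and scaled to reads outside the abundant loci, 50 and 8. Slc7a11, the cystine carrier and a well known NRF2 target in other cells, had 0 reads in all 12 libraries, which allows a share of up to 5.01e-05% of the reads in the shallowest (3 reads, counting error only). Ggt1, Dpep1, Gpx2, Gpx8, Cbr3 and Gsta1 were too low to test.

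Among the partners and regulators of NRF2, 6 of 14 rose and 2 fell, where 32.3% of all genes were called higher and 28.7% lower. That balance turned with the scaling, as did the calls over all genes. Scaled to reads outside the abundant loci, 2 were higher and 4 lower, beside 2144 and 4862 of all genes. When scaled to all reads these were 9 and 0, beside 5926 and 1615. Sqstm1, encoding p62, which draws KEAP1 into autophagy, rose by 1.37 ± 0.22 on the log2 scale, and Keap1 itself by 0.97 ± 0.17. Mafg, a small MAF partner, changed by -0.74 ± 0.21, and Crebbp, a coactivator, by -0.87 ± 0.17. Scaled to all reads, both lost their calls, Mafg at -0.18 and Crebbp at -0.305, and with length and GC content of transcripts adjusted for, Crebbp was at -0.04 and not called. These values and those of the next 4 paragraphs are over both sexes, with adjusted p from 1.15e-06 to 0.0359 in limma for the genes named.

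In glutathione turnover and transport, 9 of 15 tested genes rose and 1 fell. Slc25a39, the mitochondrial glutathione importer, rose by 2.02 ± 0.21, and Anpep, a peptidase that can split the dipeptide left from glutathione, by 1.55 ± 0.18. Abcc2, the canalicular pump that moves glutathione and its conjugates into bile, fell by 1.00 ± 0.18. Its change was -0.44 and not called when scaled to all reads, and -0.42 and still called with length and GC content adjusted for.

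In the peroxidase, thioredoxin and glutaredoxin systems, 22 of 27 genes rose. Glrx3 and Glrx5, glutaredoxins of iron-sulfur cluster handling, rose by 1.77 ± 0.17 and 2.12 ± 0.22. The median of this list was 1.38, the highest of the 5.

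All 8 genes of NADPH supply, which feeds both reductases, rose. Idh2, the mitochondrial isocitrate dehydrogenase, rose by 1.84 ± 0.18, and Me1, malic enzyme, by 1.79 ± 0.26.

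Of 26 other detoxification and iron targets, 21 rose and 1 fell. Ephx1, microsomal epoxide hydrolase, rose by 2.06 ± 0.21, and Slc48a1, a heme transporter, by 1.77 ± 0.20. Aox1, aldehyde oxidase, changed by -0.50 ± 0.20 (adjusted p = 0.0359, limma), and by 0.05 when scaled to all reads and 0.0022 with length and GC content adjusted for, neither of them called.

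**Figure D4:**
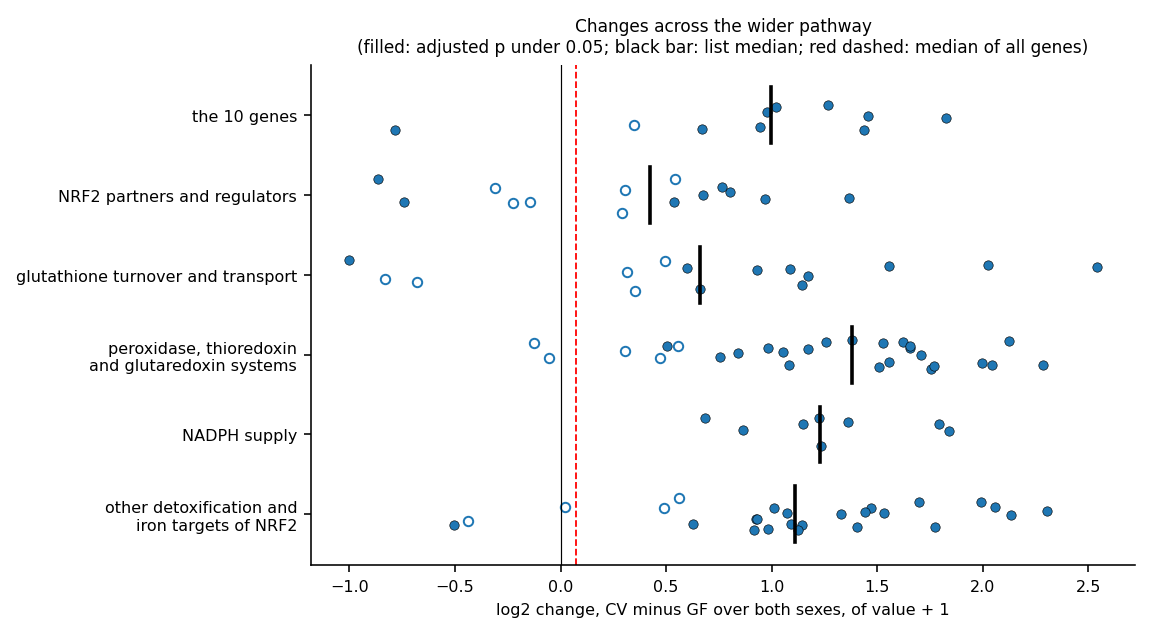
Each point is 1 gene at its log2 change from GF to CV livers over both sexes (horizontal axis, log2 of value + 1), for the 10 genes and the 5 wider lists, filled where the adjusted p was under 0.05. The black bars mark list medians, from 0.42 for the NRF2 partners to 1.38 for the peroxidase, thioredoxin and glutaredoxin systems, and the dashed line marks the median of all genes tested, 0.07.

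By Pearson's r of log2 values over the 12 libraries, which share condition and depth, the genes most like Nfe2l2 were Ammecr1l (0.984), Zmym3 (0.975) and Sox5 (0.970). Those most like Gclc were Rnf103 (0.953), Enpp3 (0.936) and Ulk2 (0.931). Nqo1 lay closest to Lipc (0.973), Ptdss1 (0.972) and Ctsb (0.970), and Hmox1 to Avpr1a (0.942), Gstp3 (0.939) and Siglece (0.934). These correlations are descriptions.

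How the libraries were scaled shifted all 10 genes by a like amount. Scaled to all reads, the median of all genes over both sexes was 0.62, and scaled to reads outside the abundant loci it was -0.38. The calls over all genes then split into 5926 higher and 1615 lower under the first and 2144 and 4862 under the second, against 3807 and 3387 as reported. Relative to that median, Nfe2l2 stood at -0.86 as reported, -0.85 and -0.87, Gpx1 at 1.75, 1.76 and 1.74, and Gclc at 0.27, 0.29 and 0.26. Of the 10 genes, 9 were called higher and 0 lower under the first scaling, and 6 higher and 1 lower under the second. With the mitochondrial ribosomal RNA share as a covariate, 0 of the 10 genes were called over both sexes in limma (1 at an unadjusted p under 0.05), as were 0 of all genes (1985). That share did not overlap between the conditions, so share and condition cannot be told apart.

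**Figure D5:**
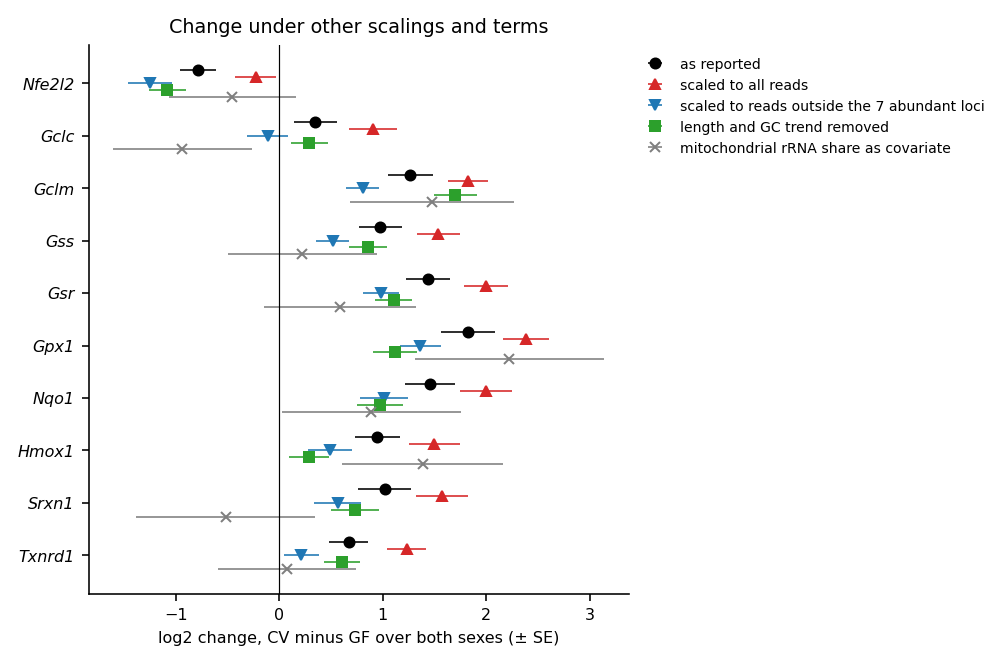
The log2 change of each gene over both sexes (horizontal axis, ± SE) is shown as reported and under 4 other settings of scaling or covariate. Scaling to all reads or to reads outside the 7 abundant loci shifts all 10 genes together, for Nfe2l2 from -0.79 to -0.23 and -1.25, and the covariate widens every error bar.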

How the data were processed

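Per the labels, poly(A) RNA of mouse liver was sequenced from stranded libraries on an Illumina HiSeq instrument. The submitters' processing notes name HTSeq 0.6.1p1, DESeq2 and GRCm38. The aligner and annotation release are not given in the sources used here. The deposited unit is a normalized signal: the authors scaled the counts per gene with 1 DESeq2 size factor per library. In every library 100% of values were whole multiples of 1 read (within 0.01 reads), so reads were recovered. The publication linked to the series describes another experiment and supplied no method or value.

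Groups and replicate numbers came from the sample titles. limma 3.58.1 (R 4.3.3) was fitted to log2(value + 1) of 11782 genes with a mean value of at least 10, with 1 mean per group and a variance trend; such folds understate changes of low genes, and 95% intervals use its moderated degrees of freedom. The limma p-values set each change against the spread among the 3 mice within each of the 4 groups, moderated across genes. The scripts were tested on simulated data. edgeR 4.0.16, DESeq2 1.42.0 and voom on the recovered reads, other scalings, filters and pseudocounts, removal of length and GC trends, a covariate, a replicate block and each library left out were alternatives. Coordinates are from GENCODE mouse release 21, which lists 97.9% of the identifiers, and promoters from RefSeq. The members and lists were chosen with earlier results of these data known. All 10 members are named, and of each wider list the 2 genes with the smallest adjusted p in each direction. Nearest patterns were named for 4 members, 3 genes each.

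The same-numbered deviations of CV males and CV females correlated at 0.12 to 0.19. Those of GF males and GF females correlated at 0.06, 0.40 and 0.07. Such values do not establish that equal replicate numbers mark paired mice, and this was not tested. With the block no member was called between the sexes, as without it, while calls over all genes rose.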

Additional observations from a re-analysis of the deposited data

How the results depend on the processing

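Of the single-gene values under alternatives, 755 kept direction and side of the threshold, 48 lost and 15 gained a call, and 9 changed sign. The sign changes concern Gclc and Srxn1, and the cause was not tested. Gclc turned to -0.22 in males and -0.11 over both sexes when scaled to reads outside the abundant loci, and to -0.27 in males without CV male 1, the lowest of -0.27 to 0.305 with a male library left out. With the mitochondrial ribosomal RNA share as covariate, Gclc was -0.69 in males, -1.18 in females and -0.93 over both, and Srxn1 -0.15, -0.88 and -0.52. Under that covariate 0 members and 0 wider pathway genes were called in males, in females or over both sexes (limma, 1 member at an unadjusted p under 0.05 in each, and 18, 15 and 19 pathway genes). Of all genes, 3, 0 and 0 were called in the same order, and 2289, 1615 and 1985 reached that unadjusted level. The 4 members called in males became 2 with no filter on low values, 8 when scaled to all reads, 0 at an adjusted p under 0.01, and 0 to 5 with a library left out. Over all genes, the 1660 called higher and 1814 lower in males became 2827 and 788 when scaled to all reads. For the other settings of that count, only the fit without the library labelled CV male 3 has its share of all genes given here. The 43 pathway genes called in males became 17 at an adjusted p under 0.01 and 22 to 49 with a library left out, the lowest without GF male 1, with 27 without GF male 3 and 26 without CV male 1. Calls over all genes in those fits are not given here, so these shifts cannot be read as particular to the pathway. Between the sexes in GF livers, 3 members were called when scaled to all reads (11.8% of all genes were) and 0 to 1 with a library left out, the 1 without GF female 2. The other counts of members and of wider pathway genes called between GF and CV, and of members between the sexes or by interaction, stayed within 1.5 times the reported ones. Counts over all genes did not: between the sexes in GF livers, 192 became 830 with the replicate block, 458 in DESeq2, 140 in edgeR, 78 in voom and 1392 scaled to all reads. In CV livers 7 became 24 with the block, 77 when the library labelled CV male 3 was left out, 48 in DESeq2, 30 in edgeR and 25 in voom. The genes entered were not the same, at 11782 in limma, 12555 in edgeR and voom and 22953 in DESeq2.

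Deviations of GF and CV mice with the same replicate number correlated at -0.23 to 0.02. Such values do not settle if the numbers mark pairs, and this was not tested. With the replicate block, 4 members were called in males, 9 in females and 9 over both sexes, as without it, and pathway counts were 33, 64 and 68. Depth limits Nqo1 most, at 10 to 23 reads per GF library.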
